A study of Mus musculus with 12 samples.

Results

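Interleukin 6 (IL-6) and the cytokines that share the receptor subunit gp130 were followed through 10 genes, chosen by name and found in full among the 39756 genes of the count table. They comprised the ligands Il6, Lif, Osm and Cntf, the receptor chains Il6ra, Il6st (which encodes gp130), Lifr and Osmr, the transcription factor Stat3 and its feedback inhibitor Socs3. Hemispheres of 12 male C57BL/6 mice aged 9 to 10 weeks by the study's methods (genotype C57BL/6J in the labels) were sequenced, 4 in each of 3 groups. The Sham group underwent sham surgery and received saline. The Vehicle group received saline and transient middle cerebral artery occlusion (tMCAO): a filament closed the left artery for 45 min and was then withdrawn, so that blood returned. The LJP group underwent the same occlusion and received Laminaria japonica polysaccharide (LJP), a sulfated polysaccharide of a brown alga, by stomach tube once daily for 14 days before surgery and again after it. The study went on with the middle of its doses (LJP-M) after a dose-finding step, while the labels of the sequenced mice name neither a dose nor a time of sampling. No artery was closed in Sham mice, where the label "ischemic hemisphere" names only the side taken.

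Cytokines of the IL-6 family bind a receptor of their own together with gp130, which carries the signal into the cell. IL-6 needs the IL-6 receptor (Il6ra), leukemia inhibitory factor (Lif) needs the Lif receptor (Lifr), oncostatin M (Osm) uses mainly its own receptor (Osmr) in the mouse, and ciliary neurotrophic factor (Cntf) uses Cntfr with Lifr. Janus kinases on the receptor then phosphorylate STAT3, which enters the nucleus and switches on target genes, among them Socs3, whose product binds gp130 and shuts the signal down. In the injured brain the pathway is best known for reactive astrocytes and for acute inflammation.

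On chromosome 11 lie 4 of the members, with Osm and Lif only 16.5 kb apart, and Osmr and Lifr lie 216 kb apart on chromosome 15. The start regions of Il6, Lif and Socs3 are shown because a ligand near 0 in Sham mice, the ligand with the highest fold change among the 3 that passed the low-count filter, and the feedback gene of the pathway carry the results that follow. Capitals mark short motifs by their letters, searched on both strands of the 250 bases before each RefSeq start: TTCNNNGAA (the STAT type), TGANTCA (the AP-1 type) and GGNNTTTCC (an NF-kappa B type), with N for any base.
Il6 (chr5:30012864-30013113, + strand): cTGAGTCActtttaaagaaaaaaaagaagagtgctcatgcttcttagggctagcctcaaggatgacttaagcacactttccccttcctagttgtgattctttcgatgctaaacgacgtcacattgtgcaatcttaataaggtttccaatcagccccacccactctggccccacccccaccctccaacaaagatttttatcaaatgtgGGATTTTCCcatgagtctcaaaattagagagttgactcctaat
Lif (chr11:4257318-4257556, + strand): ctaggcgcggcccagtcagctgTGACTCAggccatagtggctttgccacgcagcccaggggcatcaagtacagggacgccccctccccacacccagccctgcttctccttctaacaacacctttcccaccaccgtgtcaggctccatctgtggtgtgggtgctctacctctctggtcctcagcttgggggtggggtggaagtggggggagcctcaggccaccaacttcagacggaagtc
Socs3 (chr11:117969452-117969616, - strand): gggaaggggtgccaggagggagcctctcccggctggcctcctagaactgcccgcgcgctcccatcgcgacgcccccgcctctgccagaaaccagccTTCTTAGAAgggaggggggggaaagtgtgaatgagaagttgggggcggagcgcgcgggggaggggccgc
These are RefSeq sequences of GRCm38.p6, read 5′ to 3′ on the strand of the gene. The Il6 stretch reaches its start, while those of Lif and Socs3 stop 12 and 86 bases before it, where an annotated exon begins. Il6 held an AP-1 type match 249 to 243 bases before the start and an NF-kappa B type match 43 to 35 bases before it, Lif an AP-1 type match 228 to 222 bases before, and Socs3 a STAT type match 154 to 146 bases before. Of the 10 promoters listed for 9 of the members, 1 held the STAT type, 3 the AP-1 type (Il6, Lif and Cntf) and 1 the NF-kappa B type, against 7.02%, 6.75% and 4.93% of all 32851 promoters. The RefSeq start used for Socs3 lies 970 bases inside the gene as counted, so its printed stretch lies within the gene, while the starts of Il6 and Lif are those of the counted genes. The matches describe letters, not binding.

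The study also measured Il6 by quantitative PCR, and its primer pair was located in the reference. The product is 76 bases long, with the primers in capitals.
Il6 amplicon (chr5:30019400-30019475, + strand): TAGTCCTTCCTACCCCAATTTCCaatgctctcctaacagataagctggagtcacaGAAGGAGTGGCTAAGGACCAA
It lies in exon 5 of 5 of an Il6 transcript of 1141 bases (GENCODE, GRCm38), inside the coding sequence, and both primers matched 3 of the 4 annotated Il6 transcripts and no other gene. The counts described here cover the whole gene, not this stretch.

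Each mouse gave between 17960353 and 22216315 counted reads. Levels are given as CPM, counts per 1000000 counts of the normalized library. A count of 0 allows up to 3 counts, which was 0.129 to 0.173 CPM. A gene was called changed at an adjusted p-value below 0.05 in edgeR's quasi-likelihood test over 17558 genes. Neuronal, astrocyte and microglial markers were present in every mouse. The Vehicle group was not uniform: mice 1 and 2 both lay above mice 3 and 4 in all 10 members, and in 5425 of the 17558 genes tested. Fits without mice 1 and 2 were chosen after this was seen and keep only Vehicle mice 3 and 4. Several marker lists differed among the Vehicle mice or between groups. Neuronal genes (6) summed to 4524 and 3548 CPM in Vehicle mice 1 and 2 and at least 5300 in the other mice, and astrocyte genes (6) to 2657 and 2593 CPM against at least 3749. Microglial genes (6) summed to 265 to 271 CPM in Sham, 381 to 781 in Vehicle and 461 to 797 in LJP mice. The neutrophil list (7 genes) summed to 169 and 64.0 CPM in Vehicle mice 1 and 2, 18.0 and 28.5 in Vehicle mice 3 and 4, 9.97 to 22.1 in LJP mice and 5.31 to 6.69 in Sham mice, with Elane at 0 in all. Most of the neutrophil sum outside Vehicle mice 1 and 2 was Csf3r, with 186 to 474 counts in LJP and 83 to 124 in Sham mice, whereas S100a8 and S100a9 had 0 to 4 and 1 to 7 counts in LJP mice and 1 to 3 and 0 to 2 in Sham mice. The monocyte and macrophage list (6 genes) summed to 102 and 254 CPM, then 61.5 and 101, with 24.6 to 94.9 in LJP and 14.3 to 21.1 in Sham mice. Endothelial genes (6) summed to 651 and 1367 CPM, then 271 and 333, with 178 to 243 in LJP and 188 to 207 in Sham mice. Mural and fibroblast genes (6) summed to 181, 798, 188 and 212 CPM in Vehicle mice 1 to 4, with 123 to 177 in LJP and 138 to 152 in Sham mice. Oligodendrocyte genes (6) summed to 3528 to 4289 CPM in Sham, 4259 to 4558 in Vehicle and 3378 to 4199 in LJP mice. The T cell list (5), mostly Cd4, summed to 19.1 to 25.9, 3.22 to 5.81 and 6.80 to 12.8 CPM in Sham, Vehicle and LJP mice, in that order. A list of 5 lung and airway secretory genes, foreign to brain, summed to 8.53 to 13.3 CPM in Sham and Vehicle mice and 0.358 to 0.669 CPM in LJP mice, and 4 choroid plexus genes summed to 11.2 to 865 CPM, varying within every group. The part of these markers in the results was not tested.

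Levels between genes were compared per length, as TPM, transcripts per 1000000. In Sham mice Il6st was the most abundant member, at 55.4 ± 4.53 TPM (SD, n = 4), followed by Stat3 at 41.0 ± 2.61 TPM and Lifr at 15.9 ± 1.36 TPM, each clear of the next. Il6ra (5.45 ± 1.22 TPM) and Socs3 (4.67 ± 0.361 TPM) overlapped, as did Osmr (1.69 ± 0.148 TPM) and Cntf (1.23 ± 0.659 TPM), and Lif, Osm and Il6 averaged 0.192, 0.133 and 0.0405 TPM. The signal chain and the transcription factor were thus abundant without injury and the ligands scarce. In Vehicle mice Stat3 (135 ± 64.2 TPM), Socs3 (110 ± 87.0 TPM) and Il6st (84.7 ± 25.7 TPM) overlapped at the top, and Osmr (19.4 ± 11.9 TPM), Il6ra (18.5 ± 8.67 TPM) and Lifr (15.4 ± 0.827 TPM) overlapped below them. In LJP mice Stat3 (70.9 ± 12.0 TPM) and Il6st (56.3 ± 9.17 TPM) overlapped, and Socs3 (19.2 ± 7.72 TPM) overlapped with Lifr at 14.8 ± 0.817 TPM. Socs3 stood below Lifr in Sham mice and above it in Vehicle mice.

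**Figure D1:**
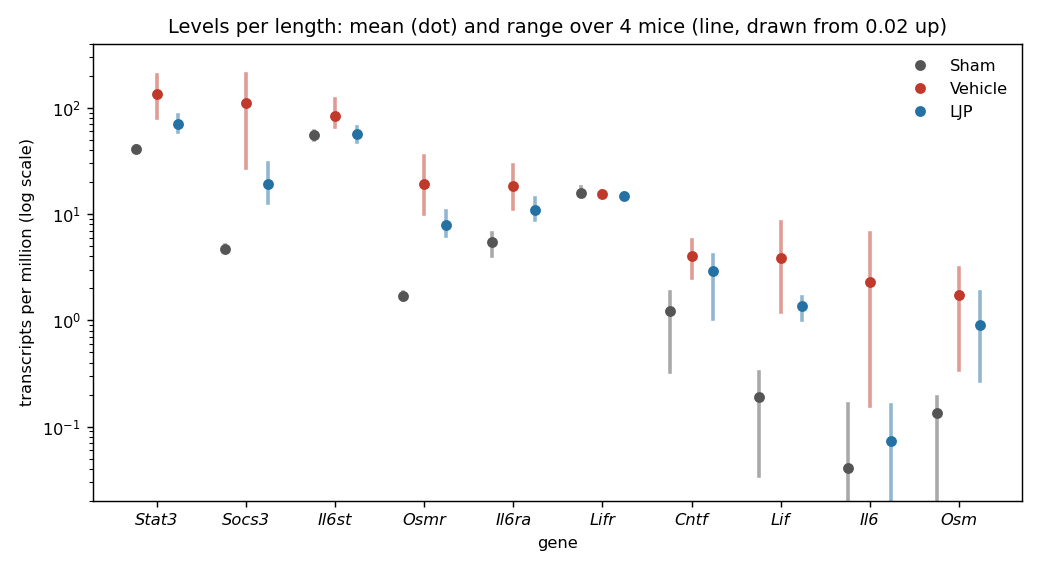
Levels of the 10 members per length, in TPM on a log axis, with the mean (dot) and the range over 4 mice (line, cut at the foot of the axis) in Sham, Vehicle and LJP mice. Lifr averages 15.9, 15.4 and 14.8 TPM in the 3 groups, while Socs3 averages 4.67, 110 and 19.2 TPM.

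Occlusion was first compared with sham surgery. Of the 9 members with enough counts for the test, 8 rose in the Vehicle group (Il6ra, Il6st, Lif, Osm, Osmr, Cntf, Socs3 and Stat3), where 22.7% of all genes tested were higher. The exception was Lifr. In the same 8 every Vehicle mouse lay above every Sham mouse, as in 20.7% of all genes tested. All 8 calls were also made in each of the 12 fits that left out 1 mouse. The median log2 fold change was 1.84 over the 9 members and 0.0 over all genes tested. In bulk tissue, more cells of a type and more RNA per cell cannot be told apart.

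Among the ligands, Il6 itself (chromosome 5, 30013114 to 30019975) was scarce. Its counts were 0, 1, 0 and 0 in Sham mice 1 to 4, 52, 16, 3 and 1 in Vehicle mice 1 to 4, and 1, 0, 1 and 0 in LJP mice 1 to 4. Most reads came from Vehicle mice 1 and 2, and Vehicle mouse 4 had no more than the single Sham mouse with a read. The gene was removed by the filter on low counts, and an exact two-sided permutation test on log2(CPM + 0.5) gave p = 0.0571 for Vehicle against Sham, where 0.0286 is the smallest that 4 against 4 allow. The summed counts, 72 against 1, gave a ratio of 64.0 after scaling by the normalized library sizes. Its 95% exact (Clopper-Pearson) interval of 11.1 to 2560 covers counting error only. Without Vehicle mouse 1 the ratio was 24.2 (3.88 to 1000). With no filter Il6 passed in edgeR (adjusted p = 0.00523), and DESeq2 called it as well (adjusted p = 0.00122).

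Lif (chromosome 11, 4257568 to 4272514), a cytokine that neural cells induce after injury, measured 0.0577, 0.545, 0.329 and 0.363 CPM in Sham mice 1 to 4 and 14.9, 7.69, 2.75 and 2.05 CPM in Vehicle mice 1 to 4. The groups did not overlap, although Vehicle mouse 1 was 7.29 times Vehicle mouse 4. Its log2 fold change was 4.37 (SE 0.68, edgeR adjusted p = 0.000692), and 2.84 without Vehicle mice 1 and 2 (edgeR adjusted p = 0.000193).

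Osm (chromosome 11, 4236785 to 4241026), a product of activated myeloid cells, had 2, 2, 0 and 2 counts in Sham mice and 44, 30, 19 and 4 counts in Vehicle mice. It was under 3 counts in every Sham mouse and above that in every Vehicle mouse. In edgeR the log2 fold change was 3.70 (SE 0.81, edgeR adjusted p = 0.00415). The summed counts, 97 against 6, gave a ratio of 14.4 (95% exact interval 6.36 to 40.1, counting error only). Without Vehicle mice 1 and 2 the log2 fold change was 2.82 (edgeR adjusted p = 0.0279). The call was lost when Sham and Vehicle mice were fitted alone.

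Cntf (chromosome 19, 12763528 to 12765632), a glial survival factor for neurons, measured 0.115, 0.545, 0.438 and 0.674 CPM in Sham mice and 2.13, 2.06, 1.02 and 0.916 CPM in Vehicle mice. All Vehicle mice were higher. The log2 fold change was 1.78 (SE 0.51, edgeR adjusted p = 0.0158), and did not pass without Vehicle mice 1 and 2 (edgeR adjusted p = 0.168). Cntf lies inside Gm44505, a transcript on the same strand with 1098 to 1661 counts per mouse, so reads could be split between them and the Cntf values are uncertain.

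Among the receptors, Osmr (chromosome 15, 6813568 to 6874968) had the highest fold change. It measured 3.23, 3.11, 2.80 and 2.75 CPM in Sham mice, 40.7, 67.0, 17.7 and 18.8 CPM in Vehicle mice and 14.8, 10.7, 18.6 and 11.6 CPM in LJP mice. Sham mice were close together, every occluded mouse was higher, and Vehicle mice 3 and 4 stood near LJP mouse 3. Vehicle mice had a log2 fold change of 3.60 (SE 0.41, edgeR adjusted p = 0.000135), the smallest p among the members. Without Vehicle mice 1 and 2 it was 2.61 (edgeR adjusted p = 1.60e-06).

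Il6ra (chromosome 3, 89869324 to 89913196), the chain that lets a cell itself bind IL-6, measured 6.23, 4.80, 6.74 and 4.15 CPM in Sham mice, 23.7, 31.5, 11.6 and 11.6 CPM in Vehicle mice and 11.4, 8.59, 14.4 and 9.31 CPM in LJP mice. No Vehicle value overlapped with a Sham value. Its log2 fold change was 1.84 (SE 0.32, edgeR adjusted p = 0.00133), and 1.08 without Vehicle mice 1 and 2 (edgeR adjusted p = 0.00142).

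Il6st (chromosome 13, 112464070 to 112506860), the shared signal chain, measured 91.2, 98.0, 87.3 and 82.6 CPM in Sham mice and 142, 214, 109 and 113 CPM in Vehicle mice. All Vehicle mice were higher, but mice 3 and 4 by little. The log2 fold change was 0.69 (SE 0.19, edgeR adjusted p = 0.0135), the smallest of the 8, and without Vehicle mice 1 and 2 it was 0.29 and did not pass (edgeR adjusted p = 0.0660).

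Lifr (chromosome 15, 7090610 to 7197489), the chain shared by Lif and Cntf, measured 50.2, 56.5, 48.7 and 47.7 CPM in Sham mice, 53.1, 56.7, 47.6 and 47.9 CPM in Vehicle mice and 44.6, 46.9, 50.3 and 46.5 CPM in LJP mice. The 3 groups overlapped. Its log2 fold change in Vehicle mice was 0.016 (SE 0.08, edgeR adjusted p = 0.887) and lay between -0.041 and 0.068 when single mice were left out.

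Downstream of the receptors, Stat3 (chromosome 11, 100886806 to 100939594) measured 52.1, 59.6, 57.4 and 54.2 CPM in Sham mice, 294, 256, 111 and 112 CPM in Vehicle mice and 104, 83.4, 116 and 81.8 CPM in LJP mice. The Vehicle mice formed a higher and a lower pair, and the lower pair lay within the range of the LJP mice. The log2 fold change in Vehicle mice was 1.79 (SE 0.29, edgeR adjusted p = 0.000796), and 0.99 without mice 1 and 2 (edgeR adjusted p = 2.45e-05).

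Socs3 (chromosome 11, 117966079 to 117970336) had the highest fold change of the tested members. It measured 4.73, 5.50, 5.04 and 4.77 CPM in Sham mice, 174, 246, 29.3 and 53.8 CPM in Vehicle mice and 19.3, 16.4, 32.4 and 13.9 CPM in LJP mice. The lowest occluded mouse was still above all Sham mice, and the Vehicle group spread 8.37-fold from its lowest to its highest mouse. Its log2 fold change was 4.65 (SE 0.61, edgeR adjusted p = 0.000259), and 3.05 without Vehicle mice 1 and 2 (edgeR adjusted p = 6.30e-06).

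**Figure D2:**
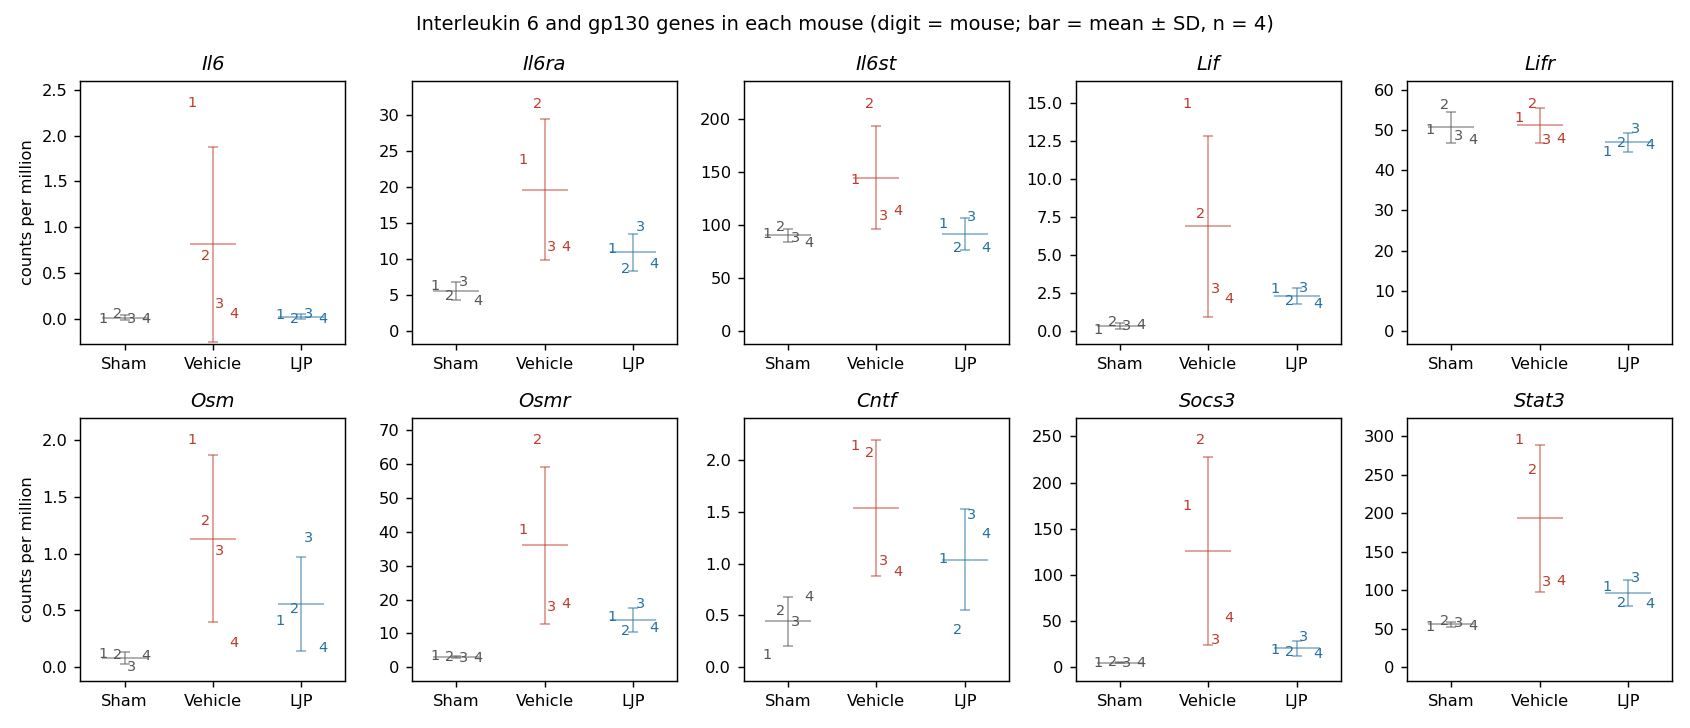
CPM of each member (y axis, linear) in every mouse by group, with the mouse numbers and the mean ± SD of 4 mice. Vehicle mice 1 and 2 stand above Vehicle mice 3 and 4 in all 10 panels, and LJP mouse 3 is the highest of its group in all 10.

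The effect of LJP was examined against the Vehicle group. Every one of the 9 tested members had a log2 fold change below 0, as did 50.2% of all genes tested, with a median of -1.01 over the members and -0.002 over all genes tested. None passed the adjusted p in edgeR, which called 0.0228% of all genes in this comparison. Those 4 genes were Csf3 and the lung and airway genes Scgb1a1, Sftpa1 and Sftpb, named here after their values were seen. At an unadjusted p below 0.05, 6 members passed in edgeR, against 29.7% of all genes tested. DESeq2 called 5 of 9 members lower (Il6st, Lif, Osmr, Socs3 and Stat3), where it called 8.99% of genes lower. The groups of mice were apart in 1 member, Il6st, as in 5.91% of all genes tested.

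Of the 9 members in the fit, Socs3 had the largest log2 difference. Its log2 fold change in LJP against Vehicle mice was -2.62 (SE 0.54, edgeR adjusted p = 0.0678), with a DESeq2 adjusted p of 0.00127. LJP mice lay between 13.9 and 32.4 CPM and Vehicle mice between 29.3 and 246 CPM, so LJP mouse 3 was above Vehicle mouse 3. Without Vehicle mice 1 and 2 the log2 fold change was -1.02 (edgeR adjusted p = 0.162).

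Il6st measured 100, 78.1, 107 and 78.4 CPM in LJP mice 1 to 4, all under the lowest Vehicle mouse at 109 CPM. The gap between the nearest mice of the groups was small beside the spread within either group. The log2 fold change was -0.67 (SE 0.19, edgeR adjusted p = 0.0707), with a DESeq2 adjusted p of 0.0178, and -0.28 without Vehicle mice 1 and 2 (edgeR adjusted p = 0.317).

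For Osmr the log2 fold change was -1.38 (SE 0.36, edgeR adjusted p = 0.0678), with a DESeq2 adjusted p of 0.00532. For Stat3 it was -1.01 (SE 0.28, edgeR adjusted p = 0.0690), with 0.00953 in DESeq2, and for Il6ra -0.85 (SE 0.31, edgeR adjusted p = 0.105), with 0.0532 in DESeq2. In all 3 genes every LJP mouse lay under Vehicle mice 1 and 2, and the highest LJP mouse reached Vehicle mouse 3 or 4. Without Vehicle mice 1 and 2 the log2 fold changes were -0.39 for Osmr, -0.21 for Stat3 and -0.091 for Il6ra (edgeR adjusted p = 0.357, 0.436 and 0.884). Lifr had a log2 fold change of -0.13 (SE 0.08, edgeR adjusted p = 0.306).

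For the ligands, Lif measured 2.73, 1.94, 2.77 and 1.73 CPM in LJP mice, a log2 fold change of -1.58 (SE 0.55, edgeR adjusted p = 0.0956) against Vehicle mice, with a DESeq2 adjusted p of 0.0383. Osm had 9, 10, 21 and 3 counts in LJP mice, a log2 fold change of -1.03 (SE 0.61, edgeR adjusted p = 0.263). Cntf measured 1.05, 0.358, 1.47 and 1.28 CPM, a log2 fold change of -0.58 (SE 0.47, edgeR adjusted p = 0.412). Each of these ligands overlapped between the groups. Il6 had at most 1 count in any LJP mouse, and the summed counts of 72 in Vehicle and 2 in LJP mice gave a ratio of 34.0 (95% exact interval 9.08 to 286, counting error only). Without Vehicle mouse 1 that ratio was 12.9 (3.13 to 114), and the exact permutation test over all 8 mice gave p = 0.0571. With no filter edgeR gave an adjusted p of 0.0455, and DESeq2 gave none.

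These calls turned on which Vehicle mice were included. Without Vehicle mouse 3, and again without Vehicle mouse 4, the same 6 members passed in edgeR (Il6ra, Il6st, Lif, Osmr, Socs3 and Stat3), all lower in LJP mice, with adjusted p between 0.00820 and 0.0457. The calls over all genes went from 4 to 3857 and 2095 in these fits. With Vehicle mice 1 and 2 left out together no member passed, calls over all genes numbered 8, Cntf turned to 0.091 on the log2 scale, and Lif stood at -0.062 and Osm at -0.16. That fit keeps only Vehicle mice 3 and 4, the lower pair in all 10 members. A shift of the Vehicle values toward the LJP values therefore followed from the choice of mice. With fewer mice, missing calls do not show that the groups are alike. Leaving out Vehicle mouse 2 alone brought the log2 fold change to -0.89 in Osmr, -0.52 in Il6ra and -0.41 in Il6st, and leaving out Vehicle mouse 1 alone brought it to -0.87 in Lif, -0.62 in Osm and -0.38 in Cntf. In 9 of 10 members the highest LJP mouse, always mouse 3, reached at least the lower of Vehicle mice 3 and 4.

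**Figure D3:**
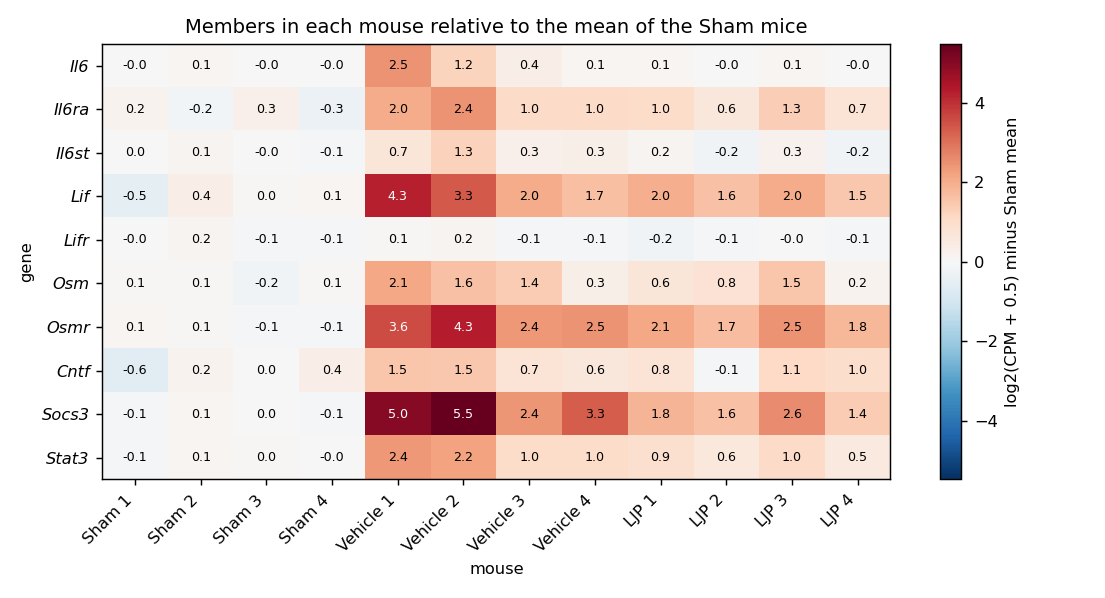
Each member (rows) in each mouse (columns) as log2(CPM + 0.5) minus the mean of the Sham mice, colored from low to high. Vehicle mice 1 and 2 are the darkest columns, reaching 4.99 and 5.48 in Socs3, where Vehicle mice 3 and 4 stand at 2.44 and 3.30 and LJP mouse 3 at 2.58.

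Compared with Sham mice, LJP mice had 2 members higher in edgeR, Osmr and Lif, where 3.85% of all genes tested were higher. The log2 fold change of Osmr was 2.23 (SE 0.40, edgeR adjusted p = 0.00657) and passed in all 12 fits without 1 mouse. That of Lif was 2.79 (SE 0.69, edgeR adjusted p = 0.0367) and lost its call in 8 of those 12 fits, at an adjusted p between 0.0501 and 0.111 when any Sham or any LJP mouse was left out. DESeq2 called 5 members higher (Il6ra, Lif, Osm, Osmr and Socs3), against 5.82% of its genes. Every LJP mouse lay above every Sham mouse in 6 members (these and Stat3), as in 12.9% of all genes tested. All 12 mice share 1 estimate of the spread. Without Vehicle mouse 2, 4 members passed (Il6ra, Lif, Osmr and Socs3), and without Vehicle mice 1 and 2 there were 6 (with Osm and Stat3). Calls over all genes went from 834 to 2357 and 4389 in these fits.

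In edgeR the fold change (log2) of Socs3 in LJP against Sham mice was 2.03 (SE 0.57, edgeR adjusted p = 0.0645), that of Stat3 was 0.79 (SE 0.28, edgeR adjusted p = 0.144) and that of Il6ra was 0.99 (SE 0.32, edgeR adjusted p = 0.108). Osm had 2.67 (SE 0.87, edgeR adjusted p = 0.109) and Cntf 1.20 (SE 0.52, edgeR adjusted p = 0.236). The summed Osm counts, 43 in LJP and 6 in Sham mice, gave a ratio of 6.74 (95% exact interval 2.86 to 19.4). That interval covers counting error only, not the spread between mice. Il6st (0.020, SE 0.19, edgeR adjusted p = 0.972) and Lifr (-0.11, SE 0.08, edgeR adjusted p = 0.523) were near the Sham level, and Il6 had 2 reads in LJP mice against 1 in Sham mice. The comparisons share their groups, so their fold changes are shown side by side only.

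**Figure D4:**
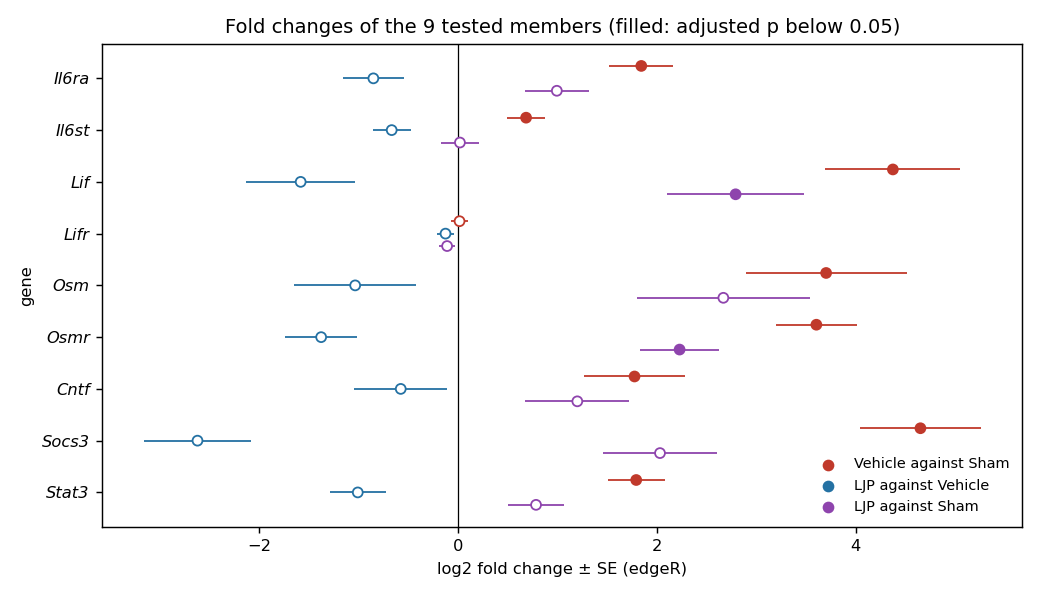
Log2 fold change ± SE from edgeR (x axis) of the 9 tested members (y axis) in Vehicle against Sham, LJP against Vehicle and LJP against Sham mice, filled where the adjusted p was below 0.05. The 8 filled points of Vehicle against Sham lie between 0.69 and 4.65, and the LJP against Vehicle points lie between -2.62 and -0.13 with none filled.

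The wider pathway was described with 6 lists of 66 genes, of which 61 were tested. In Vehicle against Sham mice 40 rose and 4 fell in edgeR, against 22.7% and 17.3% of all genes tested, with a median log2 fold change of 0.99. The STAT3 target list accounted for most. Of its 29 tested genes, 26 rose and 1 fell, with a median of 2.41. In LJP against Vehicle mice none of the 61 passed in edgeR (41 at an unadjusted p below 0.05, against 29.7% of all genes, and DESeq2 called 26 lower, against 8.99%), and the median was -0.55. Without Vehicle mouse 3 or 4, 35 and 29 passed, while calls over all genes went from 4 to 3857 and 2095. Against Sham mice 13 were higher in LJP mice, against 3.85% of all genes tested. These lists were not chosen independently of these data, and their counts are a description. Genes beyond the 3 with the smallest p of a list were named after their values were seen.

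Among the other ligands, 3 of 5 tested rose in Vehicle mice. Clcf1, which signals through Cntfr, Lifr and gp130, measured 0.164 to 1.27 CPM in Sham mice, 8.95 to 19.3 in Vehicle mice and 6.52 to 11.1 in LJP mice. Its log2 fold change was 3.85 (SE 0.43, edgeR adjusted p = 0.000122), it had -0.54 (SE 0.35, edgeR adjusted p = 0.308) in LJP against Vehicle mice, and it was the only gene of its list higher in LJP than in Sham mice at 3.31 (SE 0.42, edgeR adjusted p = 0.00116).

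Il11, which signals through its own receptor and gp130, measured 0.231 to 0.658 CPM in Sham mice, 37.7, 13.6, 1.18 and 2.37 CPM in Vehicle mice 1 to 4 and 0.307 to 1.14 CPM in LJP mice. No LJP mouse reached a Vehicle mouse, as in 5.91% of all genes tested, but LJP mouse 3 had 21 counts and Vehicle mouse 3 had 22. In edgeR the log2 fold change was 5.20 (SE 1.02, edgeR adjusted p = 0.00236) in Vehicle against Sham mice and -4.41 (SE 0.95, edgeR adjusted p = 0.0678) in LJP against Vehicle mice, where DESeq2 gave 0.000919. Without Vehicle mice 1 and 2 these were 2.25 (edgeR adjusted p = 0.00553) and -1.47 (0.251).

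Il27 never passed 4 counts and Il31 had none, which allows up to 0.129 to 0.173 CPM.

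Of the other receptors, Il11ra1 rose slightly (0.49, SE 0.14, edgeR adjusted p = 0.0141), although its groups overlapped and it did not pass without Vehicle mice 1 and 2 (edgeR adjusted p = 0.0993). It had -0.39 (SE 0.14, edgeR adjusted p = 0.0957) in LJP against Vehicle mice. Cntfr measured 95.9 to 108 CPM in Sham mice, 70.3, 68.1, 95.8 and 104 CPM in Vehicle mice 1 to 4 and 85.0 to 106 CPM in LJP mice. It was lowest in Vehicle mice 1 and 2 and did not pass, with -0.29 (SE 0.13, edgeR adjusted p = 0.0937) in Vehicle against Sham and 0.21 (SE 0.13, edgeR adjusted p = 0.280) in LJP against Vehicle mice. Il27ra and Il31ra had too few counts to be tested.

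Of 10 kinase and STAT genes, 5 rose in Vehicle mice and none fell, against 22.7% and 17.3% of all genes tested, and 3 were called without Vehicle mice 1 and 2. For Jak3, a kinase of blood-derived cells, the log2 fold change was 1.98 (SE 0.27, edgeR adjusted p = 0.000302). For Stat5a it was 1.87 (SE 0.33, edgeR adjusted p = 0.00141) and for Stat6 1.13 (SE 0.21, edgeR adjusted p = 0.00170), both STATs of other cytokines. Stat2, which carries interferon signals, had 0.80, and did not pass without Vehicle mice 1 and 2 (0.24, edgeR adjusted p = 0.150). In LJP against Vehicle mice Jak3 had -0.92 (edgeR adjusted p = 0.0692), Stat5a -1.22 (0.0678) and Stat6 -0.70 (0.0718). Stat5a had 1.15 (edgeR adjusted p = 0.00203) in Vehicle against Sham and -0.51 (0.360) in LJP against Vehicle mice when Vehicle mice 1 and 2 were left out. Jak3 was the only gene of the list higher in LJP than in Sham mice (1.07, edgeR adjusted p = 0.0374), a call made in 5 of 12 fits without 1 mouse.

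Of 13 feedback genes, 4 rose in Vehicle mice and 3 fell, shares near the 22.7% and 17.3% of all genes tested. Ptpn6, a phosphatase of blood-derived cells and microglia, measured 3.62 ± 0.710 CPM in Sham, 24.4 ± 4.02 in Vehicle and 16.1 ± 7.20 in LJP mice (SD, n = 4), a log2 fold change of 2.75 (SE 0.30, edgeR adjusted p = 0.000113) in Vehicle against Sham. It had -0.61 (SE 0.27, edgeR adjusted p = 0.160) in LJP against Vehicle mice and 2.15 (SE 0.30, edgeR adjusted p = 0.00173) in LJP against Sham mice. For Pias3, an inhibitor of STAT3, the values were 0.88 (SE 0.15, edgeR adjusted p = 0.00127) in Vehicle against Sham and -0.46 (SE 0.15, edgeR adjusted p = 0.0865) in LJP against Vehicle mice. Ptpn1 and Socs1 also rose in Vehicle mice, by 0.56 and 1.49 on the log2 scale, the Socs1 call in 7 of 12 fits without 1 mouse. Socs7 went from 196 ± 1.65 to 133 ± 23.6 CPM (SD, n = 4), a log2 fold change of -0.56 (SE 0.11, edgeR adjusted p = 0.00242), and had 0.28 (SE 0.11, edgeR adjusted p = 0.123) in LJP against Vehicle mice. Socs5 and Pias1 fell as well (-0.74 and -0.36). Without Vehicle mice 1 and 2 Socs1 (0.38, edgeR adjusted p = 0.539) and Pias1 (-0.25, 0.0602) did not pass.

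ADAM10 and ADAM17 are proteases that release the soluble IL-6 receptor. Adam17 went from 14.5 ± 1.59 to 28.8 ± 6.80 CPM (SD, n = 4), a log2 fold change of 0.99 (SE 0.18, edgeR adjusted p = 0.00166), and had -0.43 (SE 0.18, edgeR adjusted p = 0.135) in LJP against Vehicle mice. Adam10 had 79.3 ± 6.86 and 99.3 ± 26.3 CPM and did not pass, with 0.33 (SE 0.15, edgeR adjusted p = 0.106) in Vehicle against Sham and -0.26 (SE 0.15, edgeR adjusted p = 0.265) in LJP against Vehicle mice.

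Of the STAT3 targets, Serpina3n, an acute phase protease inhibitor of reactive astrocytes, measured 11.0, 7.85, 9.86 and 10.3 CPM in Sham mice, 774, 668, 338 and 264 CPM in Vehicle mice and 167, 153, 305 and 143 CPM in LJP mice. Every occluded mouse was far above the Sham mice, and LJP mouse 3 lay inside the range of the Vehicle mice. In edgeR the log2 fold change was 5.71 (SE 0.40, edgeR adjusted p = 1.54e-05) in Vehicle against Sham and -1.41 (SE 0.33, edgeR adjusted p = 0.0678) in LJP against Vehicle mice. The intermediate filament genes Gfap and Vim, marks of reactive astrocytes, had log2 fold changes of 3.87 (SE 0.28, edgeR adjusted p = 1.54e-05) and 4.88 (SE 0.41, edgeR adjusted p = 4.65e-05) in Vehicle against Sham. In LJP against Vehicle mice they had -0.40 (SE 0.25, edgeR adjusted p = 0.286) and -1.15 (SE 0.35, edgeR adjusted p = 0.0764), and both were among the 10 of 29 targets higher in LJP than in Sham mice, against 3.85% of all genes tested. That count was 6 without any one Sham mouse, 7 with the replicate block, 18 with only these groups fitted and 19 without Vehicle mice 1 and 2, where more of all genes passed as well. In Vehicle against Sham mice without Vehicle mice 1 and 2, Serpina3n had 4.94 (edgeR adjusted p = 4.67e-08) and Vim 4.20 (1.20e-07). In LJP against Vehicle mice they then had -0.65 (0.252) and -0.48 (0.377). Vegfa, a vessel growth factor, was the target that fell in Vehicle mice, with a log2 fold change of -0.69 (SE 0.13, edgeR adjusted p = 0.00211).

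**Figure D5:**
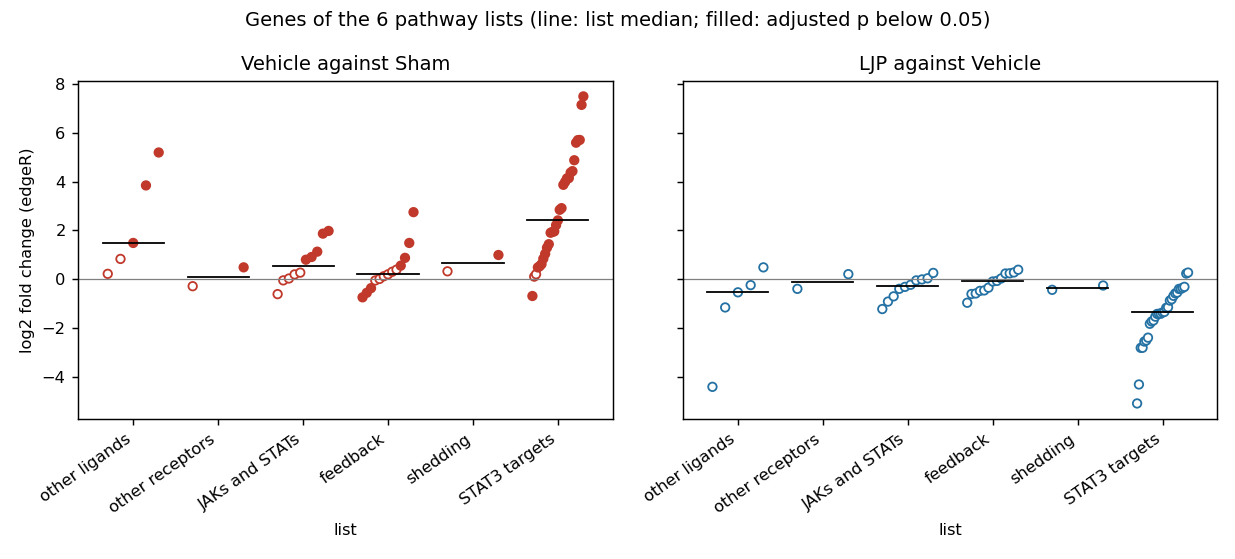
Log2 fold change from edgeR of every tested gene of the 6 lists in Vehicle against Sham and in LJP against Vehicle mice, filled where the adjusted p was below 0.05, with the list median as a line. The STAT3 target median is 2.41 in Vehicle against Sham and -1.36 in LJP against Vehicle mice, where no point is filled.

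The genes whose log2 CPM followed a member most closely over the 12 mice were listed by Pearson's r, as a description in which the points share 3 groups and the Vehicle mice described above. For Socs3 these were Hmox1 (0.995), Mt2 (0.995) and Pdpn (0.995), for Osmr S100a6 (0.996), Cd33 (0.994) and Tagln2 (0.992), and for Il6st Map4k4 (0.981), Card10 (0.981) and Lamc1 (0.980).

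Besides Cntf, the members Il6, Il6ra and Stat3 overlap a transcript on the other strand, and the counting was not stated to use strand, so reads of such partners cannot be told apart. These transcripts had at most 2, 12 and 40 counts in any mouse.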

How the data were processed

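Poly(A) RNA was sequenced as paired-end reads, and the authors deposited raw counts per gene and mouse. The submitters' processing notes name featureCounts, DESeq2, GRCm39 and mm10, and the gene positions in the table match GRCm38 for 39750 of 39756 genes, all 10 members among them. Versions and the aligner are not given in the sources used here. Groups came from the treatment labels, which name 1 batch.

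The fit used edgeR 4.0.16 in R 4.3.3: filterByExpr, TMM factors and a quasi-likelihood fit with 1 coefficient per group over all 12 mice, with Benjamini-Hochberg adjustment over 17558 genes. Il6 did not pass the filter and was compared by exact permutation of the mice. CPM used the TMM library sizes and TPM the gene lengths in the table. Intervals and floors cover counting error only. Alternatives were DESeq2 1.42.0, RLE factors, library size only, no filter, other pseudocounts, fits of only the compared groups, a replicate block, single mice left out, and the cutoffs that the paper's methods name (log2 fold change beyond 0.58 with unadjusted p below 0.01). Leaving out Vehicle mice 1 and 2 together was chosen after seeing the data. That fit keeps only Vehicle mice 3 and 4, the lower pair in all members, and takes the gap between the pairs out of the spread. Its values are a description, not an independent check. Scripts were tested on simulated data.

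Named genes were all members, the 3 genes of each list with the smallest p in Vehicle against Sham, and the 3 genes most like Il6st, Osmr and Socs3. Some list genes are counted but not reported here by name. The members and lists were chosen with earlier results of these data known.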

Additional observations from a re-analysis of the deposited data

Results flagged for a closer look

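In each group of 4 mice, the gap between the highest or lowest value and its neighbor was taken as a share of the group's range for 26 named genes, and 6 of 78 groups held a mouse beyond Dixon's limit. Chance gives about 1 in 20 groups, here 3.9. Sham mouse 2 held the single Il6 read of its group (0.0545 CPM, share 1.0), and Sham mouse 3 had no Osm read (0 CPM, share 0.899). Vehicle mouse 2 stood above the other Vehicle mice in Jak3 (56.2 CPM, share 0.832) and Adam10 (139 CPM, share 0.958). LJP mouse 3 stood above its group in Serpina3n (305 CPM, share 0.855), and Sham mouse 1 below its group in Gfap (107 CPM, share 0.905).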

How the results depend on the processing

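In Vehicle against Sham mice 8 members passed, and 6 to 9 under the alternatives. In LJP against Vehicle mice none passed, but 5 did with DESeq2, 3 with the low-count filter off, 4 at the paper's cutoffs, and 0 to 6 without single mice. Calls over all genes in this comparison were 4, and 2281 with DESeq2 and 593 with the filter off. Without Vehicle mouse 3 or 4 they were 3857 and 2095. At the paper's cutoffs calls over all genes were not counted in any comparison. In LJP against Sham mice 2 passed, but 5 with DESeq2, 5 with only these groups fitted, 5 at the paper's cutoffs, 6 without Vehicle mice 1 and 2, and 1 to 4 without single mice. Calls over all genes were 834, and 1467, 4043 and 4389 with DESeq2, with only these groups and without Vehicle mice 1 and 2. The signaling lists gave 44 calls in Vehicle against Sham mice (34 to 46 under the alternatives) and none in LJP against Vehicle mice, but 26 with DESeq2, 19 with the filter off and 0 to 35 without single mice. In LJP against Sham mice the lists gave 13, but 30 with only these groups fitted, 33 without Vehicle mice 1 and 2, and 8 to 20 without single mice (8 without any one Sham mouse, 20 without Vehicle mouse 2). With a replicate block the counts of members were 8, 0 and 1 (Lif lost its call) and those of the lists 43, 0 and 9. Same-numbered mice deviated together (r over 0.1) in 1 of 12 pairs, which gave little sign of pairing by number but cannot exclude it. For Il6 the Vehicle against Sham difference on log2(CPM + 0.5) was 1.04, 1.06 on library sizes only (exact permutation p = 0.0286), 5.38 in edgeR with the filter off, 5.62 with DESeq2, 2.25 and 0.68 at a pseudocount of 0.1 and 1, and 0.56 to 1.35 without single mice. In LJP against Vehicle mice it was -1.01, -4.70 in edgeR with the filter off, -2.11 and -0.66 at those pseudocounts, and -1.32 to -0.53 without single mice. The size of the Il6 difference thus depends on the pseudocount. In both comparisons the exact permutation p was 0.0286 without Vehicle mouse 4. Signs turned for Lifr in Vehicle against Sham mice (-0.041 to 0.068 without single mice, -0.093 without Vehicle mice 1 and 2) and for Il6st in LJP against Sham mice (-0.068 to 0.086 without single mice). They also turned for Cntf (0.091) and Cntfr (-0.034) in LJP against Vehicle mice without Vehicle mice 1 and 2. The cause of these changes was not tested. Depth limits Il6 and Osm, and 4 mice per group cannot give an exact permutation p under 0.0286.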
